A study of Mus musculus with 20 samples.

Results

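*Krt23*, *Smoc2* and *Psd2* are 3 genes that stood among the largest increases in messenger RNA when cultured mouse nephron progenitor cells (NPCs) were moved from a low to a high dose of CHIR. They were chosen from the normalized counts of the CTRL libraries, for that increase, so their CTRL values are a description and carry no test. The tests below compare knockout cells that did not serve to choose them. The CTRL libraries still enter the estimate of spread in these tests and the filter on low values. The rows were found by the symbol that the deposited comparison tables pair with each identifier, and they are 3 of the 31130 genes measured. A filter on low values (a mean of 10 or more normalized counts across the 20 libraries) left 16691 genes for the tests, 3939 of them with a symbol, and all 3 members passed it.

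The cells came from kidneys of E16.5 mouse embryos that carry Cas9-eGFP, a nuclease expressed from the *Rosa26* locus in all cells, crossed with SWR/J mice. Every culture was transfected with guide RNAs and mCherry mRNA, left for a knockout period of 48 h, held for 24 h in 1.25 µM (low) or 5 µM (high) CHIR, and sorted for mCherry. CTRL cells received a guide against GFP (3 libraries per CHIR dose), β-catenin KO cells guides against *Ctnnb1* (3), α-catenin KO cells a guide against *Ctnna1* (2), and QCKO cells guides against *Cdh2*, *Cdh3*, *Cdh4* and *Cdh11* together (2). The label of each library carries 1 of 3 dates without saying what it marks, and the libraries are named by it as dates 1, 2 and 3, which are also the replicate numbers. α-Catenin KO comes from dates 1 and 3 and QCKO from dates 2 and 3. The mCherry sort marks transfected cells, and each library pools cells with different edits. The p-values measure the spread between libraries of different dates, estimated for each gene over all 8 groups together.

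NPCs are the mesenchymal cells that give rise to the nephron epithelium. CHIR is an inhibitor of GSK3β, whose phosphorylation sends β-catenin to the proteasome. In its presence β-catenin builds up, enters the nucleus and activates transcription with TCF/LEF factors, as Wnt ligands do in the embryonic kidney. Low CHIR keeps NPCs in self-renewal, and high CHIR starts the program that leads to the renal vesicle. β-Catenin also links cadherins, the adhesion receptors, to α-catenin and the actin cytoskeleton, and the α-catenin KO and QCKO cells were made to remove adhesion while the transcriptional arm of β-catenin was left in place. The question put to the 3 genes is therefore whether their response to CHIR occurred without adhesion complexes and whether it occurred without β-catenin.

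*Krt23* (ENSMUSG00000006777) encodes a type I keratin, a subunit of the intermediate filaments of epithelial cells. It lies at chr11:99477973-99493120 (GRCm38.p6, RefSeq) on the minus strand, in the type I keratin gene cluster. *Smoc2* (ENSMUSG00000023886), at chr17:14279490-14404790, encodes a secreted calcium-binding glycoprotein of the extracellular matrix that belongs to the SPARC family. *Psd2* (ENSMUSG00000024347) encodes a protein with a Sec7 domain and a pleckstrin homology domain, of the family of exchange factors that load the small GTPase Arf6 with GTP at the plasma membrane. Of the 3 genes, the promoter of *Krt23* was at hand from RefSeq, and the 250 bases before its start (chr11:99493121-99493370, GRCm38.p6, minus strand, printed 5′ to 3′) are shown because *Krt23* was the member with the widest range of levels.
Krt23 promoter: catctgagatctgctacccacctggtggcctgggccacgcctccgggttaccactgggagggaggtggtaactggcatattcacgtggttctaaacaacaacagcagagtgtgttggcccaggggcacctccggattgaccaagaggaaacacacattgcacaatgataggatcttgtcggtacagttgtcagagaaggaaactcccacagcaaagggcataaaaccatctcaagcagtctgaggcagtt
These bases are 52.8% G or C. The TCF/LEF core motif (CTTTG followed by AA, AT, TA or TT, on either strand) has no match in them, and it has one in 14.8% of 32851 mouse promoter windows of the same length. TATAAA, on either strand, has no match either and has one in 12.4% of those windows, so no base is in capitals.

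The guides listed for *Ctnnb1* in 48 h knockouts are shown because the contrast between *Krt23* and the other 2 genes turns on the β-catenin KO cells. Capitals mark the 10 bases at the 3′ end, next to the PAM.
Ctnnb1 sgRNA1, exon 2: atgagcagcgTCAAACTGCG
Ctnnb1 sgRNA3, exon 3: agccaagcgcTGGACATTAG
Ctnnb1 sgRNA5, exon 3, and sgRNA6, exon 6, listed with the same bases: gagattatgcAGTGTCGTGA
The sources used here do not say which of these guides went into each library, and *Ctnnb1* mRNA was not analysed here, since no identifier is paired with that symbol. Counts per gene would not show in any case whether a transcript carries an edit.

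The libraries held 18124772 to 28472412 reads counted to genes. *Ctnna1* lay at 3564 to 3790 normalized counts in the 4 α-catenin KO libraries against 5817 to 11092 in the other 16, and *Cdh11* at 589 to 1005 in QCKO against 1443 to 4169 elsewhere in high CHIR and at 1818 to 2519 against 3513 to 7670 in low CHIR. Counts of the QCKO targets *Cdh3* and *Cdh4* were not lower: in high CHIR *Cdh3* was at 3347 to 3481 in QCKO against 2557 to 3720 in CTRL, and *Cdh4* at 6666 to 10276 against 7647 to 8840. The summed count of the 5 NPC markers with an identifier (of 6) was 12008 to 22070 in the low CHIR libraries of all 4 genotypes, so markers of the labelled cell type were present. Of the markers of other cells, those of leukocytes, podocytes and tubule have no identifier here, and only 4 of 10 of ureteric epithelium, 2 of 10 of stroma and 1 of 8 of endothelium do.

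In CTRL cells all 3 genes were near the limit of detection in low CHIR and plentiful in high CHIR. *Krt23* was at 0, 1.08 and 2.12 normalized counts in low CHIR (dates 1, 2 and 3, with 3 reads in all) and at 539, 148 and 577 in high CHIR. *Smoc2* was at 0, 6.50 and 1.06 and then at 369, 240.3 and 418. *Psd2* was at 5.36, 6.50 and 2.12 and then at 479, 813 and 712. Every high CHIR library stood above every low CHIR library for each gene, an order seen in 12.9% of all genes tested, and among the high CHIR libraries date 2 was the lowest for *Krt23* and *Smoc2* and the highest for *Psd2*.

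On the log2(normalized count + 1) scale, which understates changes of genes near 0, the difference was 7.59 for *Krt23*, 7.07 for *Smoc2* and 6.95 for *Psd2*, ranks 3, 4 and 5 of the 16691 genes. From the summed reads, high over low CHIR was a ratio of 435 for *Krt23* (exact 95% interval 148 to 2110), 150 for *Smoc2* (72.3 to 373) and 144 for *Psd2* (85.8 to 264). These intervals cover counting error only, and in bulk RNA a larger share of cells with the transcript and more transcript per cell cannot be told apart.

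**Figure D1:**
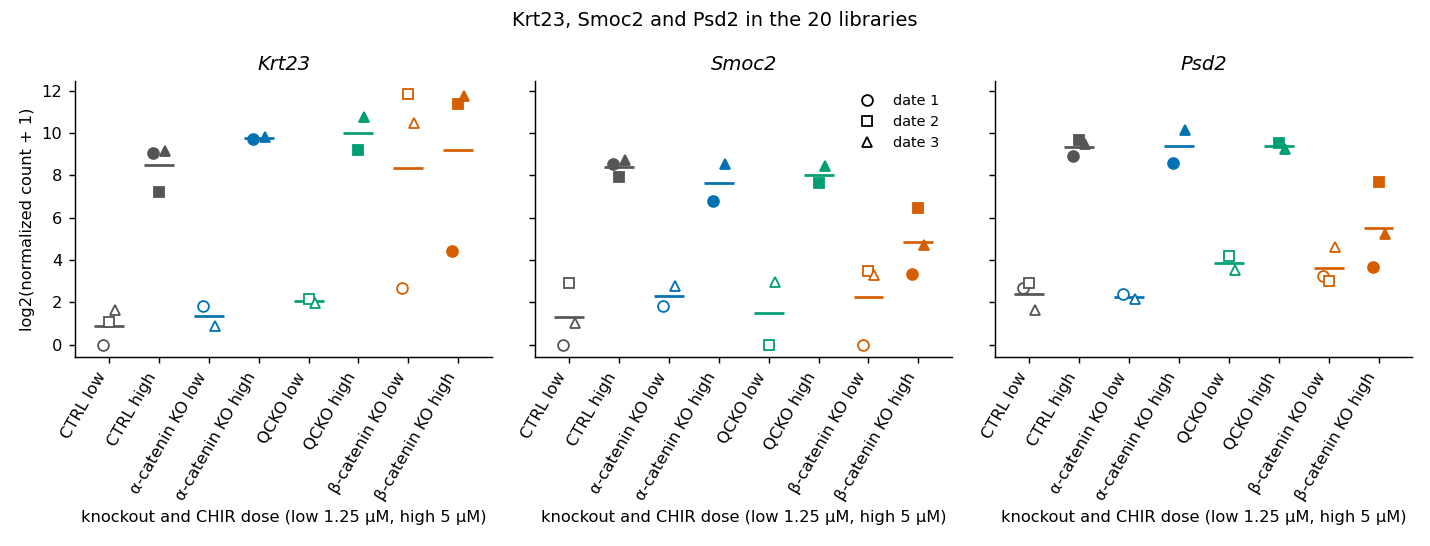
Levels of *Krt23*, *Smoc2* and *Psd2* as log2(normalized count + 1) in the 20 libraries, by knockout and CHIR dose. Each point is 1 library, its shape gives the date, open and filled points are low and high CHIR, and bars are group means. All 3 genes are low in low CHIR and high in high CHIR in CTRL, α-catenin KO and QCKO, while in β-catenin KO *Krt23* is high at both doses at dates 2 and 3 and *Smoc2* and *Psd2* stay below the other high CHIR groups.

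Without α-catenin, the 3 genes were again low in low CHIR and high in high CHIR. *Psd2* was at 4.30 and 3.39 normalized counts in low CHIR (dates 1 and 3) and at 389 and 1134 in high CHIR. *Smoc2* was at 2.58 and 5.94 and then at 108 and 373. *Krt23* was at 2.58 and 0.849 and then at 857 and 898, so its high CHIR libraries differed by less than those of the other 2 genes, whose value at date 3 was about 3 times that at date 1. *Psd2* rose by a log2 fold change of 7.11 ± 0.91 (SE; limma across all genes, Benjamini-Hochberg adjusted p = 0.00033) and *Smoc2* by 5.34 ± 1.25 (limma, adjusted p = 0.025), where 1.53% of all genes were called higher. *Krt23* had the largest difference of the 3, 8.41 ± 2.36, and missed the threshold in this fit of all 20 libraries (limma, adjusted p = 0.066). Its standard error pools the spread of all 8 groups. The SD of its log2 level was 4.96 and 4.12 in β-catenin KO in low and high CHIR, against 0.67 and 0.05 in α-catenin KO. *Krt23* passed once the date entered the model as a block (adjusted p = 0.017), and in the 14 libraries without β-catenin KO (adjusted p = 2.99e-05), a fit chosen after the values were seen.

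Each of the 4 α-catenin KO libraries decided the call of *Smoc2*: leaving out one of them gave a log2 fold change between 4.45 and 6.23 with a limma adjusted p between 0.059 and 0.24. In reads, high over low CHIR was a ratio of 515 for *Krt23* (exact 95% interval 201 to 1891, from 4 reads in low CHIR), 60.1 for *Smoc2* (32.4 to 126) and 210 for *Psd2* (110 to 460).

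In QCKO, with the guides against all 4 cadherins, the picture was the same in direction. *Psd2* was at 17.3 and 10.6 normalized counts in low CHIR (dates 2 and 3) and at 749 and 614 in high CHIR. *Smoc2* was at 0 and 6.75 and then at 202 and 343. *Krt23* was at 3.47 and 2.89 and then at 596 and 1756. In low CHIR, *Psd2* was above CTRL of the same date, by log2 differences of 1.29 and 1.90. *Smoc2* rose by a log2 fold change of 6.57 ± 1.25 (limma, adjusted p = 0.0057) and *Psd2* by 5.54 ± 0.91 (limma, adjusted p = 0.0020), where 1.82% of genes were called higher. The difference of *Krt23* was 7.94 ± 2.36 (limma, adjusted p = 0.078), and it too passed with the date as a block (adjusted p = 0.022), and in the 14 libraries without β-catenin KO (adjusted p = 4.12e-05). In QCKO itself the SD of its log2 level was 0.14 in low and 1.10 in high CHIR.

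*Smoc2* lost its call without QCKO high CHIR replicate 3 (log2 fold change 6.19, limma adjusted p = 0.069) and without QCKO low CHIR replicate 2 (5.09, adjusted p = 0.11), the library in which it had no read. In reads, high over low CHIR was a ratio of 391 for *Krt23* (exact 95% interval 190 to 974), 88.0 for *Smoc2* (42.4 to 220.0) and 47.5 for *Psd2* (33.3 to 70.3).

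Set against each other in high CHIR, α-catenin KO and QCKO gave a difference of −0.22 ± 2.36 for *Krt23*, −0.39 ± 1.25 for *Smoc2* and −0.03 ± 0.91 for *Psd2* (log2, α-catenin KO minus QCKO). None passed the test (limma, adjusted p = 1.0 for each), and neither did any of the 16691 genes (0% called, 147 at an unadjusted p under 0.05, none with edgeR and 1 with DESeq2). All 3 differences turned positive with the date as a block (1.20, 0.45 and 0.56). The standard errors, which pool the spread of all 8 groups with that of β-catenin KO among them, leave room for differences of several fold either way.

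In β-catenin KO all 3 genes were low at date 1 at either dose, and at dates 2 and 3 *Krt23* was far above the other 2. In low CHIR, *Krt23* was at 5.37, 3750.3 and 1438 normalized counts at dates 1, 2 and 3, so the libraries of dates 2 and 3 were above the 14 libraries of the other genotypes at either dose, except that 1 QCKO library in high CHIR, at 1756, exceeded that of date 3. *Smoc2* was at 0, 10.00 and 8.81 and *Psd2* at 8.60, 6.997 and 23.2 in the same libraries. The 23.2 of *Psd2* at date 3, from 29 reads, was the highest of the low CHIR libraries and 2.96 above CTRL of that date on the log2 scale. The difference of *Krt23* from the mean of the α-catenin KO and QCKO groups was 6.63 ± 1.80 on the log2 scale (limma, adjusted p = 0.19), where 0.144% of all genes were called higher. It was called with the date as a block (6.86, adjusted p = 0.048), with edgeR (9.46, adjusted p = 0.031), with DESeq2 (9.53, adjusted p = 3.8e-08), and without β-catenin KO low CHIR replicate 1 (9.47, limma adjusted p = 0.0078), the library in which it was low. Without any 1 of the other 6 libraries it was not called (adjusted p 0.29 to 0.47). The differences of *Smoc2* (0.35 ± 0.96, limma adjusted p = 0.93) and *Psd2* (0.55 ± 0.70, limma adjusted p = 0.83) did not pass. With 0 to 11 *Smoc2* reads in each low CHIR library, a decrease of this gene was not detectable at this depth.

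In high CHIR, *Smoc2* and *Psd2* were lower in β-catenin KO than in every other high CHIR group. *Psd2* was at 11.6, 208 and 36.4 normalized counts at dates 1, 2 and 3, below all 4 libraries of the adhesion knockouts, the lowest of which was at 389. *Smoc2* was at 9.24, 86.4 and 25.2, with the lowest of the adhesion knockouts at 108. The share of all genes with every β-catenin KO library below those of the adhesion knockouts was not counted. Against CTRL, 12.3% of genes showed that order in high CHIR. *Krt23* was at 20.8, 2679.9 and 3495, and here dates 2 and 3 were above all 4 libraries of the adhesion knockouts while date 1 was below them. *Psd2* fell short of the mean of the adhesion knockouts by a log2 difference of −3.86 ± 0.70 (limma, adjusted p = 0.0035), where 1.71% of genes were called lower. The call was lost when only the groups compared were fitted (−3.86, limma adjusted p = 0.051). *Smoc2*, at −3.01 ± 0.96 (limma, adjusted p = 0.077), passed with the date as a block (−2.86, adjusted p = 0.022) and when high CHIR replicate 2 of β-catenin KO was left out (−3.82, limma adjusted p = 0.042). *Krt23* differed by −0.69 ± 1.80 (limma, adjusted p = 0.90), and its sign turned when high CHIR replicate 1 of β-catenin KO was left out (1.69).

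The response to CHIR inside β-catenin KO was small beside that of the other cells. *Smoc2* and *Psd2* were each higher in high CHIR in 3 of 3 dates, an order that was not counted over all genes. The log2 fold change of high over low CHIR was 2.59 ± 1.02 for *Smoc2* and 1.91 ± 0.75 for *Psd2*, and neither passed (limma, adjusted p = 1.0 for each). For *Krt23* it was 0.86 ± 1.92 (adjusted p = 1.0), with dates 1 and 3 higher and date 2 lower in high CHIR, and its sign turned without β-catenin KO low CHIR replicate 1 (−1.98), high CHIR replicate 2 (−0.24) or high CHIR replicate 3 (−0.43). Only 0.018% of genes (3 of 16691) were called either way in this comparison, while 741 had an unadjusted p under 0.05. With the date as a block 40 were called, and with DESeq2 51. In reads the ratio of high to low CHIR was 5.96 for *Smoc2* (exact 95% interval 3.72 to 10.00) and 5.94 for *Psd2* (4.29 to 8.39), against 60.1 or more for *Smoc2* and 47.5 or more for *Psd2* in each other genotype. Most of the *Psd2* reads came from date 2, where the log2 difference was 4.71, against 0.39 and 0.63 at dates 1 and 3.

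**Figure D2:**
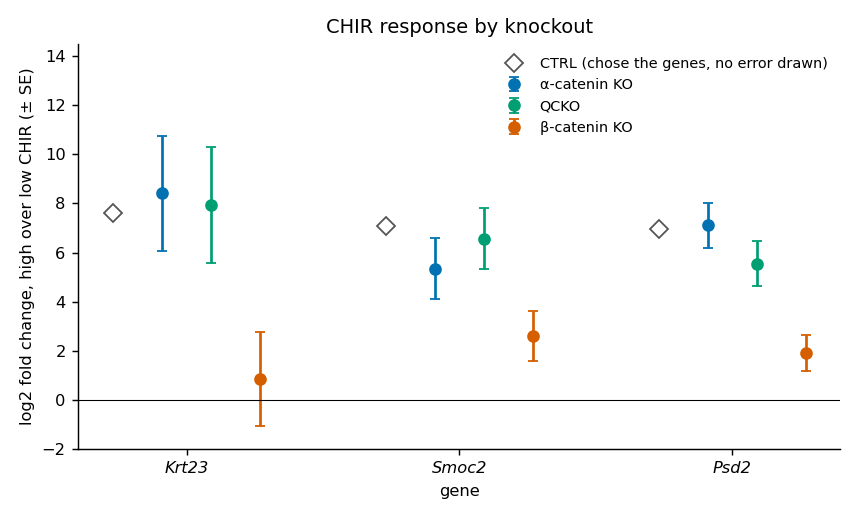
Log2 fold change of high over low CHIR for *Krt23*, *Smoc2* and *Psd2* in each genotype. Filled points are limma estimates with bars of 1 standard error, and open diamonds are the CTRL values that chose the genes, without an error. α-Catenin KO and QCKO range from 5.34 to 8.41 and β-catenin KO from 0.86 to 2.59.

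The difference between the 2 responses was tested as an interaction term. *Psd2* responded less in β-catenin KO than in the adhesion knockouts, by a log2 difference of −4.41 ± 0.99 (limma, adjusted p = 0.043), where 0.336% of genes were called lower. For *Smoc2* the difference was −3.37 ± 1.35 (limma, adjusted p = 0.40) and for *Krt23* −7.32 ± 2.54 (limma, adjusted p = 0.28). The call of *Psd2* was close to the threshold: it remained without α-catenin KO high CHIR replicate 1, β-catenin KO low CHIR replicate 1 or β-catenin KO high CHIR replicate 2, and was lost without any one of the other 11 libraries, with −5.51 to −3.48 and an adjusted p of 0.0017 to 0.14 over the 14. *Krt23* gained a call without β-catenin KO low CHIR replicate 1 (−10.16, limma adjusted p = 0.012; 0.19 to 0.65 without any other 1) and with DESeq2 (−8.51, adjusted p = 0.0013).

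The β-catenin KO libraries of date 1 stood apart for *Krt23* at both doses, and 5 of the 7 Wnt target genes tested, *Notum*, *Sp5*, *Axin2*, *Lef1* and *Tcf7*, were also lowest at date 1 at both doses, an order that 21.3% of all genes showed. Those given here by library were named after their values were seen. *Notum*, which encodes a secreted enzyme that inactivates Wnt ligands, was at 1.07, 562 and 325 normalized counts in β-catenin KO in low CHIR (dates 1, 2 and 3) and at 4.62, 407 and 578 in high CHIR, where CTRL ranged from 3.57 to 6.50 and from 102 to 312. *Sp5*, a transcription factor gene induced by Wnt signals, was at 0, 83.0 and 59.3 and then at 1.16, 68.7 and 88.5, while it had no read in the 3 CTRL libraries in low CHIR. *Axin2*, the negative feedback gene of the pathway, was at 13.97, 560 and 384 and then at 18.5, 743 and 687. At dates 2 and 3 these genes, like *Krt23*, were already high in low CHIR, and at date 1 *Notum* and *Axin2* were within or below the CTRL range of low CHIR (39.3 to 71.5 for *Axin2*, whose CTRL range in high CHIR was 357 to 435) and *Sp5* had at most 1 read. *Tcf7*, the gene of a TCF factor, differed by less, with 110.7, 282 and 309.9 in low and 92.4, 376 and 513 in high CHIR. The other 2 genes of the list did not share the split. In β-catenin KO *Lgr5*, a receptor gene for R-spondins, was at 232 to 356 in low CHIR with date 1 the highest, and *Myc* was at 892 to 1479 in low CHIR, with date 1 the lowest, and at 788 to 1636 in high CHIR, with date 1 the highest.

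For *Smoc2*, date 1 was also the lowest of the β-catenin KO libraries in low CHIR, with 0 reads against 10 and 11, while for *Psd2* date 2 was. In high CHIR date 1 was the lowest for both genes. The low CHIR values in β-catenin KO of dates 2 and 3 (10.00 and 8.81 for *Smoc2*, 6.997 and 23.2 for *Psd2*) were far below the CTRL level in high CHIR, although *Krt23* in the same libraries was above it. *Wnt4*, the ligand that drives the epithelial transition, lay between these patterns, with 30.1, 831 and 634 in low and 252, 2387 and 1200.4 in high CHIR against 4156 to 5401 in CTRL in high CHIR. *Six2*, the progenitor transcription factor, was at 773 to 1236 in β-catenin KO in low CHIR and at 409 to 798 in high CHIR, where CTRL in high CHIR was at 64.1 to 83.8. What sets date 1 apart from dates 2 and 3 was not tested, and no value used here measures editing or β-catenin in these libraries. Without both β-catenin KO libraries of date 1, the *Krt23* difference from the adhesion knockouts in low CHIR was 9.47 in place of 6.63, and its interaction term was −7.78 in place of −7.32. These values are a description, since the 2 libraries were left out after their *Krt23* values were seen.

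**Figure D3:**
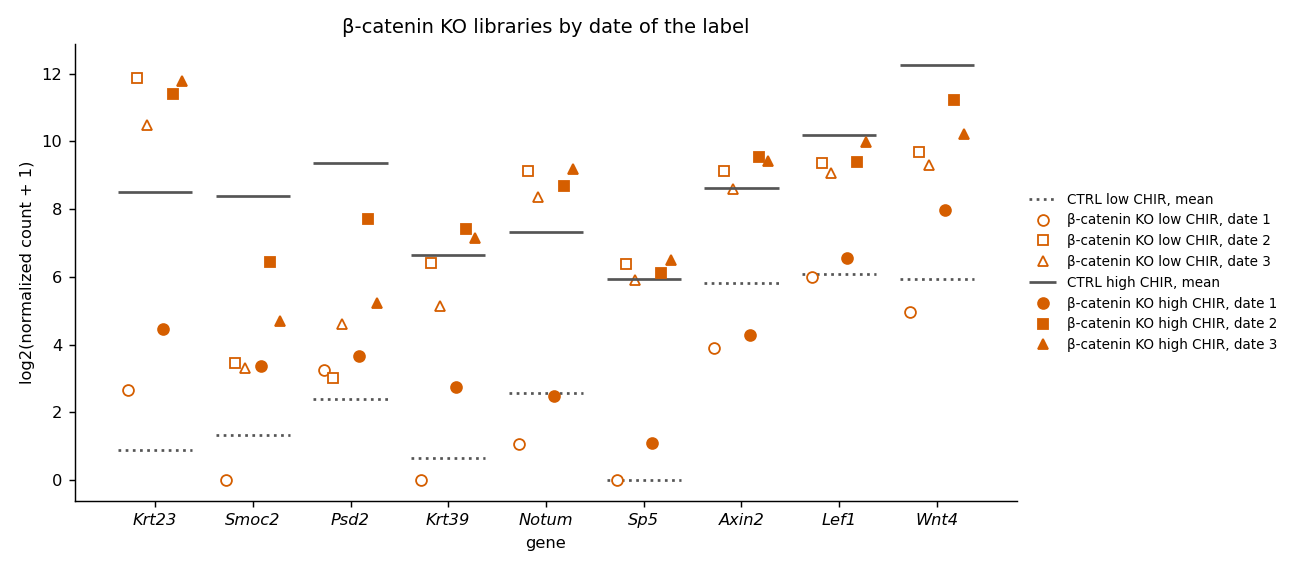
Levels of *Krt23*, *Smoc2*, *Psd2*, the keratin gene *Krt39* and 5 Wnt pathway genes, chosen after their values were seen, in the 6 β-catenin KO libraries, as log2(normalized count + 1). Open and filled points are low and high CHIR, shapes give the date, and dotted and solid lines are the CTRL means in low and high CHIR. For *Krt23*, *Krt39*, *Notum*, *Sp5*, *Axin2* and *Lef1* dates 2 and 3 lie far above date 1 at both doses, while for *Smoc2* and *Psd2* all 3 low CHIR points lie far below the solid line.

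Against CTRL the knockouts are set side by side without a test, because CTRL values chose the genes. In high CHIR, *Krt23* was above all 3 CTRL libraries in both α-catenin KO libraries, an order that 9.16% of genes showed, and in both QCKO libraries, which 13.3% of genes showed. Within a date, its log2 difference from CTRL was 0.67 and 0.64 in α-catenin KO and 1.999 and 1.60 in QCKO. *Smoc2* in high CHIR was below CTRL of the same date in all 4 adhesion knockout libraries, by log2 differences of −1.76 and −0.16 in α-catenin KO and −0.25 and −0.29 in QCKO, and its groups overlapped those of CTRL. *Psd2* differed by −0.30 and 0.67 in α-catenin KO and by −0.12 and −0.21 in QCKO, with overlap. In β-catenin KO, *Smoc2* and *Psd2* were below every CTRL library in high CHIR, which 12.3% of genes were, with log2 differences within dates of −1.46 to −5.17 and −1.96 to −5.26. For *Krt23* the log2 difference from CTRL was −4.63 at date 1 and 4.16 and 2.60 at dates 2 and 3.

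The order of the groups differed between the genes accordingly. For *Krt23* the mean normalized count fell from 2065 ± 1817 (SD, n = 3) in β-catenin KO in high CHIR, through 1731 ± 1890 (n = 3) in β-catenin KO in low CHIR, 1176 ± 820.1 (n = 2) in QCKO, 877 ± 29.0 (n = 2) in α-catenin KO and 421 ± 237 (n = 3) in CTRL in high CHIR, to between 1.07 and 3.18 in the other low CHIR groups. Each of the first 3 groups overlapped the next one in its libraries, and α-catenin KO did not overlap CTRL. For *Smoc2* the order was CTRL (342 ± 91.9), QCKO (272 ± 100.1) and α-catenin KO (241 ± 187) in high CHIR, which overlapped, then β-catenin KO in high CHIR (40.3 ± 40.8) and the low CHIR groups, between 2.52 and 6.27. For *Psd2* it was α-catenin KO (761 ± 526), QCKO (681 ± 94.9) and CTRL (668 ± 171) in high CHIR, which overlapped, then β-catenin KO in high CHIR (85.4 ± 107), which overlapped QCKO in low CHIR (13.98 ± 4.77), and the other low CHIR groups between 3.85 and 12.9.

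Across the 20 libraries the log2 levels of *Smoc2* and *Psd2* had a Pearson r of 0.93, those of *Krt23* and *Smoc2* 0.74 and those of *Krt23* and *Psd2* 0.69. In the 14 libraries without β-catenin KO the values were 0.94, 0.94 and 0.96. These libraries share the same split between CHIR doses and, in part, dates, and after subtraction of the group means r in the 14 libraries was 0.26 for *Krt23* and *Smoc2*, −0.33 for *Krt23* and *Psd2* and 0.12 for *Smoc2* and *Psd2*. Over all 20 libraries the same subtraction gave 0.69, 0.41 and 0.47. The high values of r over the 14 libraries thus rest on the difference between CHIR doses.

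**Figure D4:**
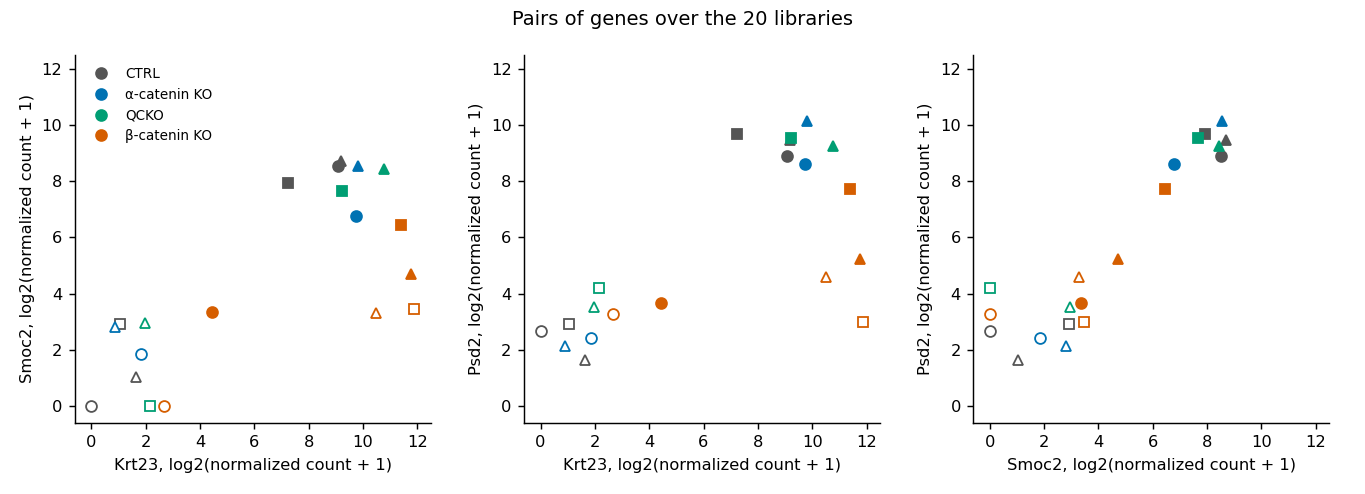
Log2(normalized count + 1) of each pair of the 3 genes in the 20 libraries. Colours are genotypes, shapes are dates as in the plot of levels by library, and open and filled points are low and high CHIR. The 14 libraries of CTRL, α-catenin KO and QCKO form 2 clouds by CHIR dose, and the β-catenin KO libraries of dates 2 and 3 leave them toward high *Krt23*.

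The genes with a symbol whose log2 level was most like each member over the 20 libraries were named by Pearson r, as a description. For *Krt23* they were *Mab21l1*, a gene of eye development (0.967), *Sp5* (0.959), *Gpr155*, which encodes a membrane protein (0.956), *Sptlc3*, a subunit of serine palmitoyltransferase (0.955), and *Notum* (0.953). *Mab21l1* was at 0, 1304 and 659 normalized counts in β-catenin KO in low CHIR (dates 1, 2 and 3), which is the split of *Krt23*. For *Smoc2* they were *Gm14204* (0.973), the semaphorin gene *Sema5b* (0.966), *Gm50405* (0.965), *Pdgfa*, a growth factor gene (0.963), and *Wnt4* (0.952). For *Psd2* they were *Trappc9*, a vesicle trafficking gene (0.972), the lymphatic growth factor gene *Vegfc* (0.971), *Scube3*, which encodes a secreted protein (0.967), *Ankrd45* (0.965) and *Hsd17b2*, a steroid dehydrogenase gene (0.964). *Trappc9* was at 1022, 2977 and 1152 in β-catenin KO in high CHIR, highest at date 2 as *Psd2* was. By Spearman's rho, 2 of the 5 named for *Krt23*, 3 of those for *Smoc2* and 1 of those for *Psd2* were also among the first 5, so the lists depend on the measure.

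Of the 5 other keratin genes with an identifier, 4 were tested and 1 was called higher with CHIR, in α-catenin KO and in QCKO, where 1.53% and 1.82% of all genes were. *Krt39*, also a type I keratin gene, is the protein-coding gene next to *Krt23*, 19.8 kb away at chr11:99512960-99521338. It was at 0 and 0 normalized counts in α-catenin KO in low CHIR and at 295 and 187 in high CHIR, and at 0 and 1.93 and then at 149.7 and 340.4 in QCKO. Its log2 fold change was 7.88 ± 1.64 (limma, adjusted p = 0.012) in α-catenin KO and 7.05 ± 1.64 (limma, adjusted p = 0.021) in QCKO. Since it had no read in α-catenin KO in low CHIR, its level there in high CHIR was at least 183-fold higher, taken against a limit of 3 reads over the group. In β-catenin KO *Krt39* was at 0, 84.0 and 34.4 in low and at 5.78, 169.6 and 140.5 in high CHIR, so it showed the split by date of *Krt23*, with which it had a Pearson r of 0.95 over 20 and 0.98 over 14 libraries. *Krt8*, *Krt7* and *Krt15*, keratin genes of simple and stratified epithelia, were not called in any comparison (*Krt15* in QCKO, −2.83 ± 0.88, limma adjusted p = 0.096). The keratin genes on the other side of *Krt23*, *Krt20* and *Krt12*, have no identifier in the tables used here.

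None of the tested relatives of the other 2 genes shared their increase. Of the SPARC family, 2 genes besides *Smoc2* had an identifier and were tested. *Sparc*, which encodes the matrix protein that gives the family its name, fell by 1.13 ± 0.27 on the log2 scale in α-catenin KO (limma, adjusted p = 0.029) and by 1.44 ± 0.27 in QCKO (limma, adjusted p = 0.0052). In these comparisons 1.82% and 2.13% of all genes were called lower. *Sparc* was higher in β-catenin KO than in the adhesion knockouts in high CHIR by 1.16 ± 0.21 (limma, adjusted p = 0.0033), where 4.06% of genes were called higher. *Spock2*, a proteoglycan gene, was not called in any comparison. Of the Sec7 family and *Arf6*, 3 genes besides *Psd2* were tested. *Psd3*, a relative of *Psd2*, fell by 1.42 ± 0.35 in α-catenin KO (limma, adjusted p = 0.034), was at −0.59 ± 0.35 in QCKO (limma, adjusted p = 0.53), and was higher in β-catenin KO than in the adhesion knockouts in high CHIR by 1.04 ± 0.27 (limma, adjusted p = 0.032). The cytohesin genes *Cyth1* and *Cyth3* were not called. Symbols come from tables of genes that differed in some comparison, so these lists hold 3 of 8 and 4 of 15 of their genes and the rest were not analysed here.

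Other lists of Wnt and NPC genes were set beside the members. Genes of these lists, like those of the keratin and marker lists, have a symbol because they differed in a deposited comparison. Their calls and medians are partly built in by that choice, and the values over all genes are not a matched background. Of 15 Wnt target genes 7 had a symbol, of 11 induction genes 9, and of 7 self-renewal genes all 7. Of 7 Wnt target genes tested, *Lef1*, which encodes a partner of β-catenin, was called higher with CHIR in α-catenin KO (4.06 ± 0.95, limma adjusted p = 0.024) and QCKO (4.33 ± 0.95, limma adjusted p = 0.014), where 1.53% and 1.82% of all genes were, and none was called in β-catenin KO, where 0.018% of genes were called either way. The list went both ways, with *Lgr5* at −1.28 and −0.75 and *Myc* at −1.28 and −1.24 in α-catenin KO and QCKO, none of them called. The list's median log2 fold change was 3.19, 2.96 and 0.47 in these 3 genotypes, against 0.011, −0.0057 and 0.025 over all genes. Of 9 induction genes, 6 were called higher in α-catenin KO, 3 in QCKO and none in β-catenin KO, against the same shares of all genes. The largest called changes in α-catenin KO were those of *Wnt4* (6.21 ± 1.15, limma adjusted p = 0.0055), *Lhx1*, a transcription factor gene of the renal vesicle (5.27 ± 1.32, limma adjusted p = 0.037), and *Lef1*, beside 5.34 to 8.41 for the 3 members. Those called in QCKO were *Wnt4* (5.69 ± 1.15, limma adjusted p = 0.0086), *Lef1* and the cadherin gene *Cdh4* (1.96 ± 0.37, limma adjusted p = 0.0056), which is itself a target of the QCKO guides. In high CHIR, 2 of the 9 were called lower in β-catenin KO than in the adhesion knockouts, as *Psd2* was, where 1.71% of all genes were. They were *Pax2*, a transcription factor gene of the nephron (−1.67 ± 0.39, limma adjusted p = 0.018), and *Cdh4* (−1.50 ± 0.28, limma adjusted p = 0.0046). All 7 self-renewal genes were called lower in both adhesion knockouts, where 1.82% and 2.13% of genes were, with *Meox2* (−6.25 ± 0.66, limma adjusted p = 4.44e-05, and −6.92 ± 0.66, limma adjusted p = 1.59e-05), *Six2* (−4.77 and −5.23) and *Osr1* (−4.42 and −4.66) the largest, and none in β-catenin KO. In high CHIR all 7 were called higher in β-catenin KO than in the adhesion knockouts, where 4.06% of genes were, with *Meox2* (5.84), *Osr1* (4.24) and *Foxc2* (3.97) the largest. For the interaction term, 6 of these 7 were called, with the sign opposite to that of *Psd2*, where 0.677% of genes were called higher, and *Meox2* (5.64), *Osr1* (4.34) and *Six2* (4.13) were the largest. The 5 NPC markers, of which 4 are also on the self-renewal list, were called lower with CHIR in both adhesion knockouts. They were *Six2*, *Meox2*, *Crym* (−4.02 and −4.55), *Cited1* (−3.54 and −3.35) and *Eya1* (−2.66 and −2.99). All 5 were called higher in β-catenin KO than in the adhesion knockouts in high CHIR, by 5.84 for *Meox2*, 4.82 for *Crym*, 3.63 for *Six2*, 2.30 for *Cited1* and 1.61 for *Eya1*, and all but *Cited1* for the interaction term (*Crym* 4.50, *Eya1* 1.94).

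*Krt23* is a gene of epithelia, so markers of the ureteric epithelium, which an NPC preparation can carry, are given beside it. The summed count of the 4 markers with an identifier was 264 to 633 in CTRL in low and 812 to 954 in high CHIR, 983 to 1546 in α-catenin KO and 1590.1 to 1765 in QCKO in high CHIR, and 390.1 to 615 and 471 to 940 in β-catenin KO in low and high CHIR. Of these 4, 3 were tested, since *Wnt11* fell below the filter on low values. *Gata3* (3.27) and *Hoxb7* (1.38) were called higher with CHIR in α-catenin KO and *Gata3* (4.27) in QCKO, against 1.53% and 1.82% of all genes. *Hoxb7* was called lower in β-catenin KO than in the adhesion knockouts in high CHIR (−0.94), and *Gata3* for the interaction term (−3.32). *Tfap2b* was at −0.63 ± 1.17 and −2.45 ± 1.17 and was not called (limma, adjusted p = 0.91 and 0.36), while *Wnt11*, a marker of the ureteric tip, was at 0 to 15.5 in all 20 libraries. In the 2 β-catenin KO libraries of low CHIR where *Krt23* was at 1438 and 3750.3, the sum was at most 615. *Tek*, a receptor gene of endothelium and the 1 endothelial marker with an identifier, was at 0 to 3.25 in CTRL in low and at 89.7 to 177 in high CHIR. As for *Smoc2* and *Psd2*, its log2 fold change with CHIR was smaller in β-catenin KO than in the adhesion knockouts. Its interaction term, −3.18 ± 1.08, was not called (limma, adjusted p = 0.26). Unlike *Smoc2*, its mean in high CHIR was higher in α-catenin KO (238) and QCKO (289) than in CTRL (138). *Tek* was at 5.16 to 7.64 and then at 92.7 to 383 in α-catenin KO, at 0.867 to 2.89 and then at 221 to 357 in QCKO, and at 2.999 to 4.80 and then at 4.62 to 85.3 in β-catenin KO. *Tek* was called higher with CHIR in α-catenin KO (4.70 ± 1.00, limma adjusted p = 0.014) and QCKO (6.71 ± 1.00, limma adjusted p = 0.00081), and lower in β-catenin KO than in the adhesion knockouts in high CHIR (−3.02 ± 0.76, limma adjusted p = 0.027). The 2 stromal markers with an identifier, the transcription factor genes *Tcf21* and *Meis1*, went the other way, with a summed count of 3875 to 8324 in low and 1166 to 2779.7 in high CHIR over all genotypes. *Tcf21* was called lower with CHIR in α-catenin KO (−2.59 ± 0.44, limma adjusted p = 0.0031) and QCKO (−3.24 ± 0.44, limma adjusted p = 0.00039) and higher in β-catenin KO than in the adhesion knockouts in high CHIR (1.51 ± 0.34, limma adjusted p = 0.013), and *Meis1* was called lower in QCKO (−1.26 ± 0.29, limma adjusted p = 0.019). The part of these cells in the results was not tested.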

How the data were processed

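The authors sequenced messenger RNA of sorted cells as paired-end reads. The submitters' processing notes name bcl2fastq, STAR, featureCounts of Subread, Salmon and DESeq2, and the builds GRCm38, GRCh38 and mm10, with no role or order. The deposited table gives a signal per gene and library, which is a read count after division, by the authors, by the size factor of its library. Multiples of the smallest step were whole reads (tolerance 0.01) for 100% of values. The factor is near 1 in 2 libraries (low CHIR replicate 2 of β-catenin KO, high CHIR replicate 3 of α-catenin KO), so this check says less there. Recovered reads served for the intervals, edgeR and DESeq2. The deposited comparison tables, which also list the authors' log2 ratios and p-values of genes past their thresholds, were used only to pair 4316 identifiers with symbols. Genes have a symbol here because they differed in one of those comparisons. Reference positions and the promoter are from RefSeq on GRCm38.p6.

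R 4.3.3 and limma 3.58.1 were run on log2(normalized count + 1) (trend, 1 mean per group, all 20 libraries, mean of 10 or more normalized counts, Benjamini-Hochberg over 16691 genes). Calls needed an absolute log2 fold change over 0.5 and an adjusted p under 0.05. edgeR 4.0.16 and DESeq2 1.42.0 were alternatives. Adhesion knockouts are the mean of the α-catenin KO and QCKO groups. Same-numbered libraries share the date in their label, whose meaning the labels do not give. Across genes, low and high CHIR libraries of one date deviated from their group means with correlations of 0.0474 to 0.721. Calling was tested on simulated data. Intervals are exact binomial at 95%, and intervals and the floor of 3 reads cover counting error only, as the reads carry no molecular identifiers.

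The members, lists and tests were chosen with earlier results of these data known. Other genes named are the 5 most correlated with each member, every called gene of a list with at most 5 calls, otherwise its 3 largest changes, and genes a result turns on, chosen after their values were seen (*Axin2*, *Notum*, *Sp5*, *Six2*, *Wnt11* and *Tek* by library).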

Additional observations from a re-analysis of the deposited data

Results flagged for a closer look

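The difference between the CHIR response of *Psd2* in β-catenin KO and in the adhesion knockouts passed the test of the difference itself, with a log2 difference of −4.41 (limma interaction term, Benjamini-Hochberg adjusted p = 0.043). The call was lost without any 1 of 11 of the 14 libraries (adjusted p up to 0.14), with edgeR (adjusted p = 0.11), with quantile normalization (adjusted p = 0.053) and with only the groups compared (adjusted p = 0.10). By date, the log2 differences of high over low CHIR were 0.39, 4.71 and 0.63 in β-catenin KO. Those of the adhesion knockouts were 6.20 and 8.01 in α-catenin KO and 5.35 and 5.73 in QCKO. The date 2 value of β-catenin KO lies nearest to the adhesion knockouts. Without both β-catenin KO libraries of date 1, left out after the values were seen, the difference was −3.65 (limma, adjusted p = 0.078).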

How the results depend on the processing

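Of 392 values of the 3 genes under other settings, 327 kept their direction and side of the threshold, 20 passed it where the reported value had not, 23 missed it where the reported value had passed, 20 changed sign and 2 others moved. With the date as a replicate block, *Krt23* was called with CHIR in α-catenin KO (8.41) and QCKO (7.94) and in β-catenin KO against the adhesion knockouts in low CHIR (6.86), *Smoc2* was called in that comparison in high CHIR (−2.86), and α-catenin KO against QCKO changed sign without a call for *Krt23* (1.20), *Smoc2* (0.45) and *Psd2* (0.56). The block changed no other call of the 3 genes. The same 2 calls of *Krt23* with CHIR came with only the groups compared (8.41 and 7.94), with DESeq2 (8.999 and 8.53) and in the 14 libraries without β-catenin KO (8.41 and 7.94). In low CHIR β-catenin KO against the adhesion knockouts it was called with DESeq2 (9.53) and edgeR (9.46), and its interaction term with DESeq2 (−8.51). Without both β-catenin KO libraries of date 1 these values were 9.47 and −7.78. That setting was chosen after the low *Krt23* values of the 2 libraries were seen, so its calls are no support. In high CHIR that contrast of *Krt23* changed sign with DESeq2 (1.02), edgeR (1.03) and without both libraries (1.69). *Smoc2* was called there with a pseudocount of 5 (−2.79) and quantile normalization (−3.13), and lost its call with CHIR in α-catenin KO with a pseudocount of 0.25 (5.59). *Psd2* lost its interaction call with edgeR (−3.93), only the groups compared (−4.41), quantile normalization (−4.30) and without both libraries (−3.65), and its call against the adhesion knockouts in high CHIR with only the groups compared (−3.86, limma adjusted p = 0.051). For α-catenin KO against QCKO it changed sign, without a call, with DESeq2 (0.16), edgeR (0.16) and quantile normalization (0.014). A pseudocount of 5 lowered the CTRL difference to 5.92 for *Krt23*, 5.59 for *Smoc2* and 6.12 for *Psd2*.

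Leaving out 1 library at a time gave, for high over low CHIR in α-catenin KO, 7.94 to 8.89 (*Krt23*), 4.45 to 6.23 (*Smoc2*) and 6.34 to 7.88 (*Psd2*), in QCKO 7.16 to 8.72, 5.09 to 8.04 and 5.21 to 5.87, and in β-catenin KO −1.98 to 3.23, 1.46 to 3.33 and 0.82 to 2.85. For β-catenin KO against the adhesion knockouts it gave −1.97 to 1.69, −3.82 to −2.27 and −4.95 to −2.92 in high CHIR and 4.87 to 9.47, −0.38 to 1.48 and 0.062 to 0.86 in low CHIR. For the interaction term it gave −10.16 to −4.94, −4.49 to −2.63 and −5.51 to −3.48, for α-catenin KO against QCKO −1.001 to 0.56, −1.27 to 0.50 and −0.80 to 0.74, and for CTRL 7.14 to 8.23, 6.41 to 7.86 and 6.56 to 7.20. Where 1 library was left in a group, it was assumed to vary like the other groups.

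The number of genes called, 559 for CHIR in α-catenin KO and 660 in QCKO, was 1150 and 1256 with the date as a block, 874 and 1034 with DESeq2, and 166 to 275 and 245 to 265 without 1 library, and 1855 in QCKO with only the groups compared. With CHIR in β-catenin KO it was 3, and 0 to 51 over the alternatives. β-Catenin KO against the adhesion knockouts called 962 genes in high CHIR (494 to 1798 over the alternatives) and 24 in low CHIR (0 to 361), and the interaction term 169 (75 to 522). *Smoc2* in low CHIR fell below the filter with only the groups compared. Few reads in low CHIR limit the folds, and 2 libraries per adhesion knockout limit the tests. The cause of these shifts was not tested.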
